A study of Mus musculus with 20 samples.

Results

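Ccng1 and 9 other genes of the p53 pathway were followed across 6 groups of mouse neurospheres, which are free-floating clusters grown from neural stem and progenitor cells. The 10 genes, Ccng1, Mdm2, Trp53, Trp53inp1, Sesn2, Bax, Bbc3, Phlda3, Zmat3 and Plk2, were taken by name from a deposited table of 36724 genes. Each had a value above 0 in all 20 libraries, and all 10 were among the 16403 genes that reached 0.5 RPKM in at least 3 libraries. RPKM corrects reads for gene length and library size. The libraries were exon-captured and the gene lengths used are not given, so levels compare only roughly between genes. The set was chosen by measured values: Ccng1 was selected on its small p-value between knockout and wild-type spheres of the second hippocampal round, and the others as genes of its pathway. That comparison is therefore described without a test for all 10 genes, while the other comparisons were tested.

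p53, the protein encoded by Trp53, is a transcription factor that is stabilised by DNA damage and other stress and then switches on genes for cell cycle arrest, DNA repair, metabolic control and apoptosis. Its level is set mainly by degradation, since Mdm2, itself a target, marks p53 for destruction. In neural stem and progenitor cells p53 is known to restrain proliferation and self-renewal and to promote the loss of damaged cells. RNA levels of targets do not measure p53 protein, and several of these genes also respond to other factors.

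The study compared neurospheres of Egfl7 knockout and wild-type C57BL6 mice aged 8 to 12 weeks. Egfl7 codes for a secreted, EGF-like protein made by endothelial and neural stem cells. All spheres were grown without treatment in medium with EGF and FGF at 20 ng/ml. The first 2 groups were spheres of the subventricular zone (SVZ) from the first sphere round at culture day 3, from 3 male knockout and 3 male wild-type donors. The next 2 were hippocampal spheres of the first round at day 5, called HC1, with 3 libraries from male knockout donors and 3 from female wild-type donors. The last 2 were hippocampal spheres of the second round at day 5, called HC2, with 4 knockout and 4 wild-type libraries from male donors. Genotype and donor sex cannot be told apart in HC1, nor can region and culture day between SVZ and HC1 spheres.

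Egfl7 was read first as a check of the labels. It was listed at 0 in all 7 hippocampal knockout libraries (3 reads there are worth 0.118 to 0.315 RPKM), and at 0.566 to 1.59 RPKM in the 7 hippocampal wild types. In the SVZ, knockout replicate 2 had 2.86 RPKM and wild-type replicate 3 had 0, both against their labels. SVZ results are therefore also given without both libraries. Relative depth, worked out from the lowest values and set to 1 for SVZ knockout replicate 1, was 0.898 to 1.07 in the first round and 1.37 to 2.4 in HC2. All 10 neural stem and progenitor markers, such as Nes and Sox2, were kept. Summed markers of endothelial cells, microglia, pericytes and fibroblasts, and blood stayed at or under 1.89 RPKM per list in every library.

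Stretches of the promoters are shown for 5 of the genes, because p53 acts by binding a pair of 10-base half-sites near its targets. RefSeq promoters on GRCm38.p6, each 300 bases from 250 before to 50 after the start, were at hand for 8 of the 10 genes; Zmat3 and Trp53inp1 were not matched. The p53 consensus half-site was searched on both strands, which read the same for this palindromic motif. Bbc3 has 3 listed starts, so 10 promoters were searched. A half-site with no mismatch was present in 4 of these 10, those of Ccng1, Bax, Mdm2 and Trp53, and in 8.36% of all 32851 promoters. A pair of half-sites, with at most 2 mismatches in all and at most 13 bases between them, was present in Ccng1 and Bax and in 4.09% of all promoters. The 250 bases before the start follow, 5′ to 3′ on the gene's strand, for those 4 genes and for Phlda3, which had no match; capitals mark half-sites.
Ccng1: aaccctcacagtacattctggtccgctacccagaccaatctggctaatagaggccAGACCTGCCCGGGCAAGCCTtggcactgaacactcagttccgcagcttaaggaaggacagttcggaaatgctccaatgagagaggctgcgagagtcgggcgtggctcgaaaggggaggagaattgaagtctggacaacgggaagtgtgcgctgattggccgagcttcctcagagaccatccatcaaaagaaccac
Bax: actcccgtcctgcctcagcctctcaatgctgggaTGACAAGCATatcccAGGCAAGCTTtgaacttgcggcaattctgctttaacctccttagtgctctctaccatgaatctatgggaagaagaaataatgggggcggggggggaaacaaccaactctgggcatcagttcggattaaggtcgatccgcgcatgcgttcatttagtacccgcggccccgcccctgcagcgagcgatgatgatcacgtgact
Mdm2: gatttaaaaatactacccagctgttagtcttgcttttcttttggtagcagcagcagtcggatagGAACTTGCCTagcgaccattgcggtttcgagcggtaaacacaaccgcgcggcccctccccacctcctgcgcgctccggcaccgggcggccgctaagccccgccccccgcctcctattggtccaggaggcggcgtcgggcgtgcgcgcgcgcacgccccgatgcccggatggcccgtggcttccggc
Trp53: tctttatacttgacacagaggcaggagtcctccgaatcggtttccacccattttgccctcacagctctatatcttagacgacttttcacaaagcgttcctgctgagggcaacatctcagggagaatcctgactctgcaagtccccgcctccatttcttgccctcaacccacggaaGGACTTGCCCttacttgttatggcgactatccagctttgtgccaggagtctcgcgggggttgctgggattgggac
Phlda3: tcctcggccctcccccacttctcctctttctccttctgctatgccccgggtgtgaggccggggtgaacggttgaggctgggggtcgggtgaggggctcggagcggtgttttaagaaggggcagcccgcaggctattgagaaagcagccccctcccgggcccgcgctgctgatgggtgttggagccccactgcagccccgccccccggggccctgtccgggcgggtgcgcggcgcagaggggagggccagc
The Ccng1 stretch is at chr11:40755287-40755536 on the minus strand, and its half-sites are adjacent, starting at -195 and -185 with 1 mismatch. The Bax stretch, at chr7:45466899-45467148 on the minus strand, has half-sites at -216 and -201 with 2 mismatches and 5 bases between them. Those of Mdm2 and Trp53, at chr10:117710759-117711008 (minus) and chr11:69580109-69580358 (plus), have 1 half-site each, at -186 and -75. The Phlda3 stretch is at chr1:135765835-135766084 on the plus strand. A match describes letters only and is not evidence of binding, and no match says only that these letters are not in this window.

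Ccng1 encodes cyclin G1, an atypical cyclin that brings a phosphatase to Mdm2. The gene lies on chromosome 11 from 40748552 to 40755315 (GRCm38). Among HC2 libraries its RPKM level was 352, 362, 375 and 379.6 for knockouts and 228, 248, 251 and 294 for wild types, so the groups did not overlap. The mean was 367 ± 12.6 RPKM (SD, n = 4) against 255 ± 27.9 RPKM (SD, n = 4), a difference of 0.53 (SE 0.14) on the log2(RPKM + 1) scale, on which all differences below are given. That difference is what brought the gene forward.

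First-round spheres gave less separate values. In HC1, the knockouts had 270.1, 302 and 396 RPKM of Ccng1 and the wild types 232, 262 and 283 RPKM. The groups overlapped, and the difference of 0.30 (SE 0.16) did not pass the test (limma adjusted p = 0.976). In the SVZ, the knockouts had 329, 345 and 357 RPKM and the wild types 267, 340.4 and 422 RPKM, with the wild types on both sides of the knockouts. The SVZ difference was 0.03 (SE 0.16, limma adjusted p = 1), and 0.18 without the 2 libraries whose Egfl7 went against the label. The difference between the HC1 and SVZ effects did not pass either, at 0.28 (SE 0.22, limma adjusted p = 1).

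By group mean, Ccng1 ran from HC2 knockouts through SVZ knockouts (343 ± 14.01 RPKM, SD, n = 3), SVZ wild types (343 ± 77.5 RPKM), HC1 knockouts (322 ± 65.3 RPKM) and HC1 wild types (259 ± 25.6 RPKM) to HC2 wild types. Neighbours in that order overlapped in their values throughout. By RPKM, the gene was among the most abundant of the 10 in each group, and only Bax reached similar levels.

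**Figure D1:**
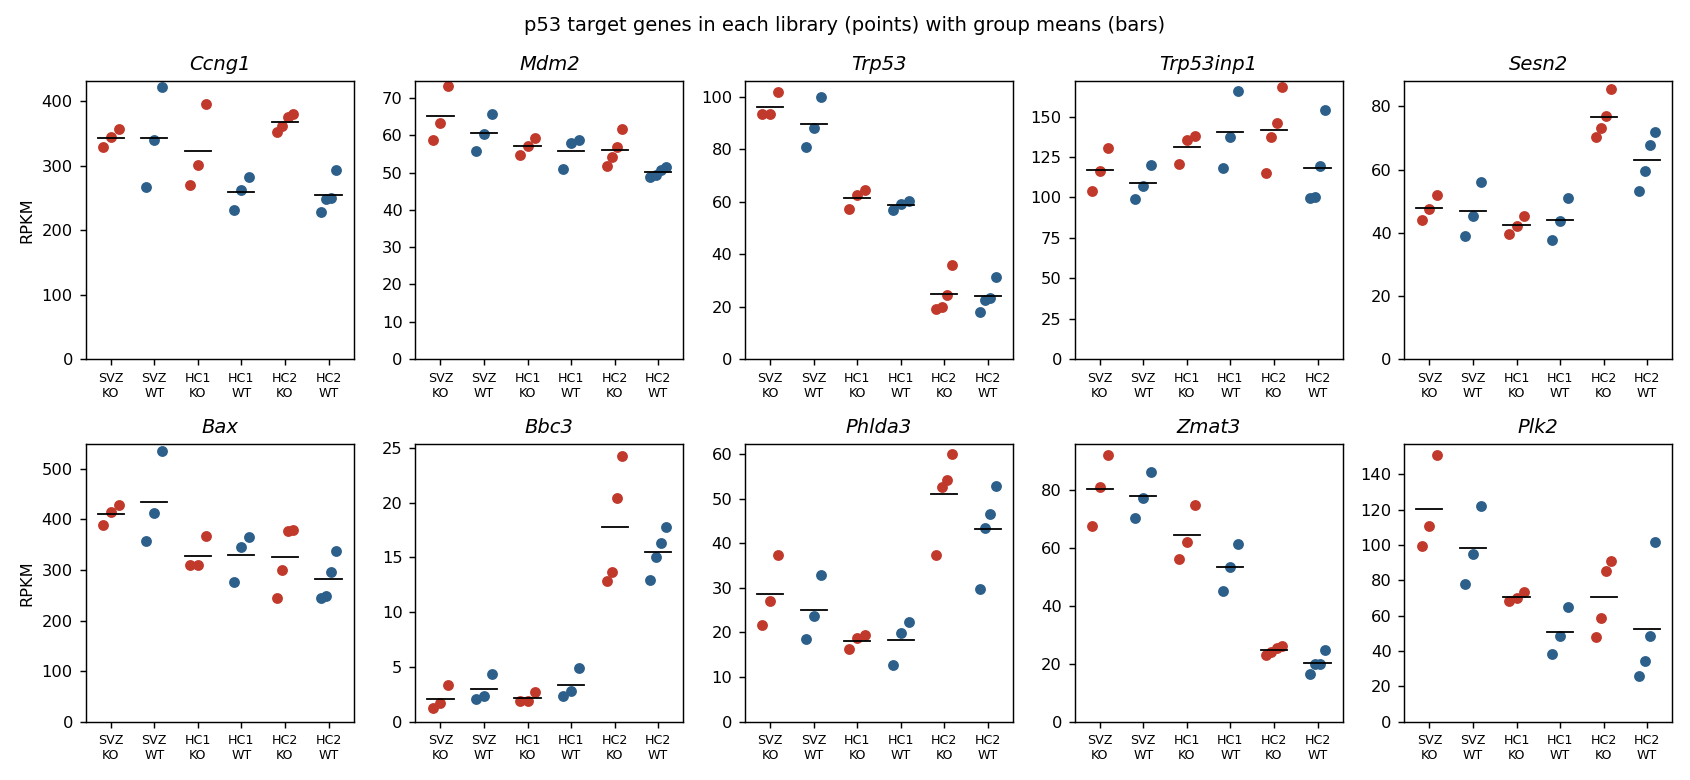
RPKM of the 10 genes (linear axes from 0, 1 panel per gene) in the 6 groups, with 1 point per library, red for knockout (KO) and blue for wild type (WT), and a bar at each group mean. Bbc3, Phlda3 and Sesn2 stood higher and Trp53 and Zmat3 lower in HC2 than in HC1, while Ccng1 separated by genotype in HC2.

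Between the sphere rounds, HC2 against HC1 as the mean over both genotypes, the 10 genes split. Bbc3, Phlda3 and Sesn2 rose, Zmat3 and Trp53 fell, and the other 5, Ccng1 among them, did not pass the test. Among all 16403 genes, 22.8% were called higher and 31.5% lower in HC2 by limma at an adjusted p under 0.05, so 3 and 2 of 10 are not far from the background. With libraries scaled to an equal median, the share of calls that were higher went from 42.0% to 52.6%, and the same 5 genes passed in the same directions. Depth was higher in HC2 throughout, so round and depth cannot be told apart. Whether a gene changed per cell or the mixture of cells changed cannot be told apart in bulk RNA.

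The apoptosis genes differed. Bbc3, which encodes PUMA, a BH3-only protein that unleashes Bax, was at low levels in first-round hippocampal spheres, with 1.86, 1.91 and 2.73 RPKM in HC1 knockouts and 2.33, 2.76 and 4.93 RPKM in HC1 wild types. In HC2 it reached 12.9, 13.7, 20.4 and 24.2 RPKM for knockouts and 12.96, 15.1, 16.3 and 17.8 RPKM for wild types. Every HC2 library stood above every HC1 library. The ratio of mean RPKM was 6.06 and the difference 2.25 (SE 0.19, limma adjusted p = 3.39e-08). SVZ spheres had 1.22 to 4.34 RPKM. Bax, which encodes the protein that permeabilises mitochondria, was abundant throughout, with 329 ± 35.9 RPKM (SD, n = 6) in HC1 and 303 ± 56.8 RPKM (SD, n = 8) in HC2. Its difference of -0.13 (SE 0.12) did not pass the test (limma adjusted p = 0.379). A predicted gene, Gm45808, shares 192 exon bases with Bax on the same strand, so some reads may be assigned to either.

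Phlda3 and Sesn2 both act on growth signalling. Phlda3 encodes a small lipid-binding protein that holds back Akt, and it was at 16.2, 18.8 and 19.5 RPKM in HC1 knockouts and 12.8, 19.8 and 22.3 RPKM in HC1 wild types. It was at 37.3, 52.6, 54.0 and 59.9 RPKM in HC2 knockouts and 29.7, 43.4, 46.6 and 52.7 RPKM in HC2 wild types. The rounds did not overlap, the ratio of means was 2.58, and the difference was 1.31 (SE 0.17, limma adjusted p = 5.24e-06). Sesn2 encodes sestrin 2, a leucine sensor that restrains mTORC1. Its values were 39.6, 42.1 and 45.2 RPKM in HC1 knockouts, 37.7, 43.9 and 50.9 RPKM in HC1 wild types, 70.2, 73.2, 77.0 and 85.7 RPKM in HC2 knockouts and 53.3, 59.6, 67.9 and 71.9 RPKM in HC2 wild types. All HC2 values were above all HC1 values, with a ratio of means of 1.62 and a difference of 0.67 (SE 0.09, limma adjusted p = 1.24e-05).

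Trp53 itself fell. It was at 57.0, 62.3 and 64.2 RPKM in HC1 knockouts and 56.9, 59.1 and 60.1 RPKM in HC1 wild types, against 19.0, 20.0, 24.2 and 35.9 RPKM in HC2 knockouts and 17.9, 22.7, 23.4 and 31.4 RPKM in HC2 wild types. The HC1 mean was 2.47 times that of HC2, and the difference was -1.30 (SE 0.13, limma adjusted p = 2.01e-07). A Trp53 pseudogene is annotated on chromosome 17, and how the authors counted reads shared with it is not stated. Zmat3, a zinc finger protein that binds RNA, fell alongside. Its values were 56.4, 61.9 and 74.9 RPKM in HC1 knockouts and 45.0, 53.6 and 61.3 RPKM in HC1 wild types, and 23.2, 24.0, 25.4 and 26.3 RPKM in HC2 knockouts and 16.3, 19.8, 20.0 and 24.9 RPKM in HC2 wild types. The difference was -1.35 (SE 0.10, limma adjusted p = 6.81e-09). Neither gene overlapped between rounds. Among all genes, 8.87% were higher and 16.5% lower in HC2 with no overlap, against 3 and 2 of the 10.

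The remaining 4 genes did not pass the test between rounds. Mdm2, the ubiquitin ligase, had 56.4 ± 3.05 RPKM (SD, n = 6) in HC1 and 53.1 ± 4.29 RPKM (SD, n = 8) in HC2, a difference of -0.09 (limma adjusted p = 0.255). Trp53inp1, a stress-induced protein that enhances p53 activity, ranged from 118 to 166 RPKM in HC1 and from 99.7 to 169 RPKM in HC2 and differed by -0.08 (limma adjusted p = 0.579). Ccng1 differed by 0.09 (limma adjusted p = 0.473). With equal medians the Ccng1 difference became 0.21 (limma adjusted p = 0.0939), and those of Mdm2 and Trp53inp1 0.03 and 0.04. Ccng1 differed by 0.2 with the mean level of cell cycle genes as a covariate (limma adjusted p = 0.185) and by 0.21 among knockouts alone (limma adjusted p = 0.282). Plk2, which encodes polo-like kinase 2, differed by -0.07 (SE 0.24, limma adjusted p = 0.818), and by 0.05 with equal medians.

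**Figure D2:**
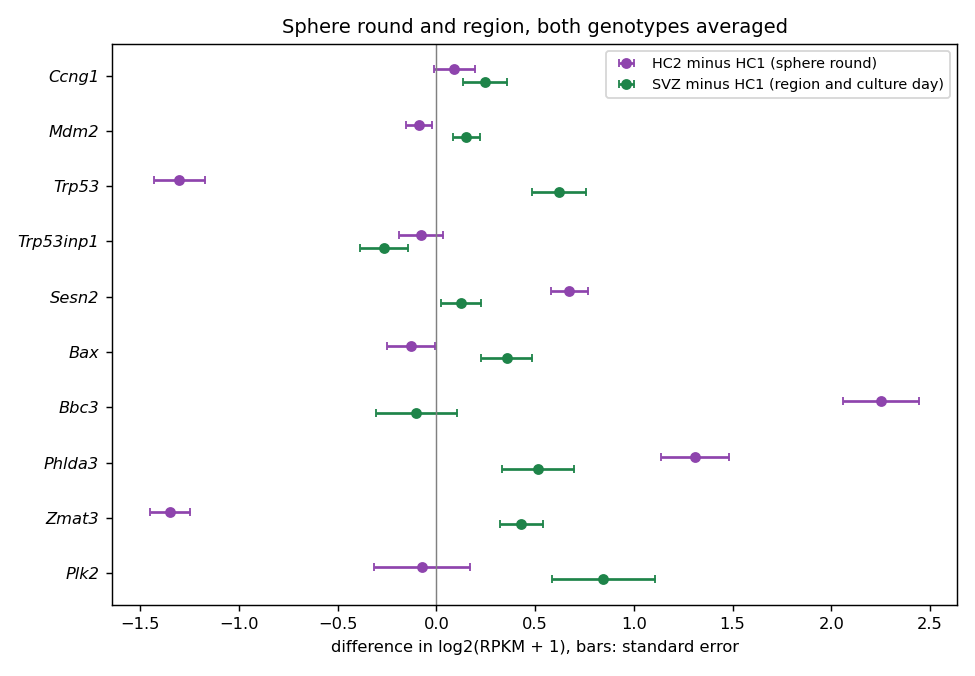
Difference in log2(RPKM + 1) for each of the 10 genes, HC2 minus HC1 (purple) and SVZ minus HC1 (green), as means over both genotypes with bars for the standard error. Both contrasts use the same HC1 libraries. Bbc3 stood at 2.25 and Zmat3 at -1.35 for HC2 minus HC1.

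HC2 libraries also varied in proliferation genes. The mean log2(RPKM + 1) of 38 cell cycle genes, such as Mki67 and Top2a, was 3.42, 3.86, 5.51 and 5.60 in HC2 knockouts and 1.74, 2.63, 3.56 and 5.81 in HC2 wild types. It was 4.60 to 5.97 in HC1 and 6.55 to 6.73 in the SVZ. Plk2 was 102 RPKM in the HC2 wild type of highest cell cycle mean and 26.1 RPKM in that of lowest mean, with 34.3 and 48.8 RPKM between. HC2 knockouts had 48.2, 58.9, 85.1 and 90.7 RPKM of Plk2. Trp53 was highest within each HC2 genotype in 1 of the libraries with a cell cycle mean above 5.5, at 35.9 and 31.4 RPKM.

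With the cell cycle mean as a covariate, the 5 round calls were kept in the same directions. Trp53 then differed by -1.03 (limma adjusted p = 1.22e-06) and Bbc3 by 2.14 (limma adjusted p = 1.1e-06). Plk2 differed by 0.60 and passed the test under that covariate (limma adjusted p = 0.000843). Summed RPKM of 6 astrocyte markers was 1117 to 2155 in HC1 and 943 to 3732 in HC2, and none of the 6 was at 0 in all libraries of a group. Their part in the round differences was not tested. Among male knockouts alone, the same 5 genes passed, with Bbc3 at 2.54 and Trp53 at -1.31.

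**Figure D3:**
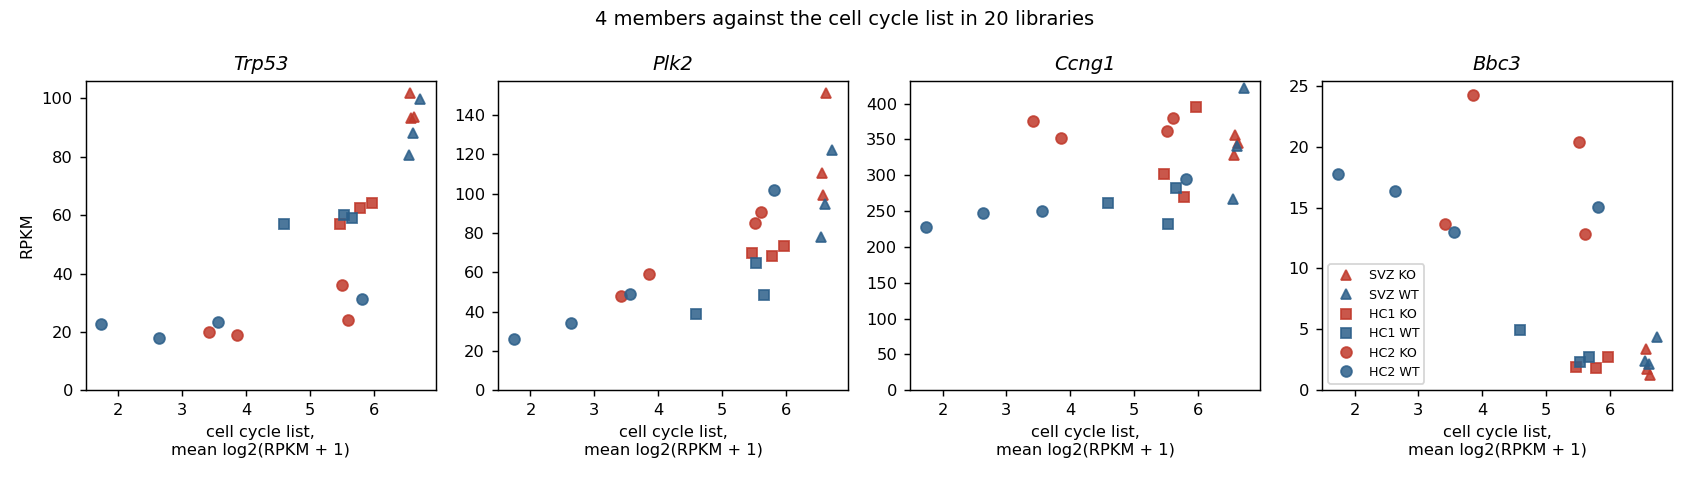
RPKM of Trp53, Plk2, Ccng1 and Bbc3 against the mean log2(RPKM + 1) of 38 cell cycle genes, 1 point per library, with triangles for SVZ, squares for HC1, circles for HC2, red for knockout and blue for wild type. HC2 spans 1.74 to 5.81 on the horizontal axis, and the HC2 points of Bbc3 lie above all others along that span.

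Between regions in the first round, SVZ against HC1 as the mean over both genotypes, 5 of the 10 genes were called higher in the SVZ and none lower. Among all genes 14.5% were called higher and 19.6% lower by limma. This contrast shares its HC1 libraries with the comparison of rounds, and its wild-type donors were male in the SVZ and female in HC1. Cell cycle means did not overlap between SVZ and HC1 libraries, and their part was tested only as a covariate. Summed RPKM of the 6 astrocyte markers was 604 to 1145 in the SVZ and 1117 to 2155 in HC1, with none of the 6 at 0 in all libraries of a group, and their part was not tested.

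Trp53 was at 93.4, 93.4 and 102 RPKM in SVZ knockouts and 80.6, 88.2 and 99.9 RPKM in SVZ wild types, all above the HC1 maximum of 64.2 RPKM. The difference was 0.62 (SE 0.14, limma adjusted p = 0.00335). Zmat3 had 67.6, 80.9 and 92.2 RPKM in SVZ knockouts and 70.3, 77.4 and 86.3 RPKM in SVZ wild types. It overlapped HC1 by 1 HC1 knockout library at 74.9 RPKM and differed by 0.43 (SE 0.11, limma adjusted p = 0.00721). These 2 calls were kept without the doubtful SVZ libraries. Both missed the threshold among knockouts alone, at 0.64 for Trp53 (limma adjusted p = 0.0534) and 0.31 for Zmat3 (limma adjusted p = 0.21).

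Plk2 was at 99.3, 111 and 151 RPKM in SVZ knockouts and 77.8, 95.0 and 122 RPKM in SVZ wild types, all above the HC1 maximum of 73.4 RPKM. It differed by 0.84 (SE 0.26, limma adjusted p = 0.0208). Phlda3 differed by 0.51 (SE 0.18, limma adjusted p = 0.0377) and Bax by 0.36 (SE 0.13, limma adjusted p = 0.0431), and both overlapped HC1. Libraries with no overlap were found for 2 of the 10 genes, Plk2 and Trp53, and for 11.4% of all genes in the same direction. Without both doubtful SVZ libraries, Plk2, Phlda3 and Bax no longer passed, at 0.67, 0.42 and 0.26 (limma adjusted p = 0.121, 0.145 and 0.197). Under the covariate Phlda3 and Bax were lost, at 0.46 and 0.19 (limma adjusted p = 0.113 and 0.241), and the Plk2 difference shrank to 0.34 (limma adjusted p = 0.0497). Over 22 alternatives, Phlda3 missed the threshold in 12 and Bax in 13, most of them with a single library left out. Plk2 missed it without SVZ knockout replicate 2, SVZ wild-type replicate 3 or HC1 wild-type replicate 1, at 0.76 in each case (limma adjusted p = 0.0546, 0.0566 and 0.0522).

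The 5 genes that did not pass included both sides of 0. Ccng1 differed by 0.25 (SE 0.11, limma adjusted p = 0.0925), and it passed without SVZ wild-type replicate 1 or HC1 knockout replicate 3, at 0.33 and 0.32 (limma adjusted p = 0.0238 and 0.0305). Mdm2 differed by 0.15 (limma adjusted p = 0.0966) and Sesn2 by 0.12 (limma adjusted p = 0.357). Trp53inp1 differed by -0.26 (limma adjusted p = 0.0994) and Bbc3 by -0.10 (limma adjusted p = 0.739). Mdm2 passed as higher with equal medians and with library weights, at 0.19 and 0.15 (limma adjusted p = 0.0334 and 0.0233). Trp53inp1 passed as lower with only the compared groups fitted and with library weights, at -0.26 and -0.29 (limma adjusted p = 0.0407 and 0.0132). Without both doubtful SVZ libraries none of the 5 passed. Ccng1 was then at 0.16, Mdm2 at 0.08 and Sesn2 at 0.06 (limma adjusted p = 0.319, 0.444 and 0.737). Trp53inp1 was at -0.34 and Bbc3 at -0.11 (limma adjusted p = 0.0918 and 0.731). Under the cell cycle covariate Ccng1 differed by 0.17 and Mdm2 by 0.13 (limma adjusted p = 0.303 and 0.222).

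For genotype, none of the 10 genes passed the test in SVZ or HC1 spheres, by limma, and none had an unadjusted p under 0.05. Among all genes, 0.0122% were called higher and 0.0% lower in SVZ knockouts, and 0.0% and 0.0122% in HC1 knockouts, while 379 and 646 of the 16403 genes had an unadjusted p under 0.05. The median difference of the 10 was 0.07 in the SVZ and 0.03 in HC1, against -0.0021 and -0.0126 over all genes. The SVZ groups overlapped for all 10, while 3.41% of all genes were higher and 4.35% lower in SVZ knockouts with no overlap. The largest difference of the 10 in HC1 was that of Plk2, at 68.3, 70.1 and 73.4 RPKM in knockouts and 38.6, 48.6 and 64.9 RPKM in wild types. Those groups did not overlap, as for 6.63% of all genes in that direction and 7.05% in the other, but the difference of 0.50 (SE 0.37) did not pass (limma adjusted p = 0.976). Bbc3 differed by -0.42 (SE 0.29, limma adjusted p = 0.976) in HC1 and -0.36 (SE 0.29, limma adjusted p = 1) in the SVZ. Without both doubtful libraries the SVZ value of Bbc3 was 0.09. None of the 10 passed limma's test of the difference between the HC1 and SVZ knockout effects, and 0.0% of all genes were called higher and 0.0122% lower there.

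In HC2 the 10 genes are described only. All 10 had a higher mean of log2 values in the knockouts, with a median difference of 0.26 against 0.0004 over all genes. Ccng1, which was selected on this comparison, is part of that median. The median lay between 0.18 and 0.29 with any 1 HC2 library left out. The difference was largest for Plk2, at 0.56 (SE 0.32) with overlapping groups, and it ranged from 0.3 without wild-type replicate 5 to 0.94 without wild-type replicate 2. Ccng1 followed at 0.53, then Zmat3 at 0.29 (SE 0.13), Sesn2 0.28 (SE 0.12) and Trp53inp1 0.27 (SE 0.15). Phlda3 had 0.25 (SE 0.22), Bax 0.20 (SE 0.16), Bbc3 0.15 (SE 0.25) and Trp53 0.04 (SE 0.17). Mdm2 was at 51.7, 54.1, 56.9 and 61.6 RPKM in knockouts and 48.9, 49.4, 50.7 and 51.5 RPKM in wild types, a difference of 0.16 (SE 0.08). Apart from Ccng1, Mdm2 was the only gene of the 10 whose HC2 groups did not overlap. Among all genes 0.719% had no overlap in that direction and 0.408% in the other. Ccng1 did not overlap either, but it was selected on this comparison and cannot be counted against those shares. Leaving out 1 knockout library turned Bbc3 to -0.01 (without replicate 4) and Trp53 to -0.15 (without replicate 1), and leaving out wild-type replicate 3 turned Trp53 to -0.09. With the cell cycle mean as a covariate Ccng1 had 0.45, Mdm2 0.13 and Zmat3 0.31, while Plk2 had 0.04, Bax 0.02 and Trp53 -0.17, and the median of the 10 was 0.2.

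**Figure D4:**
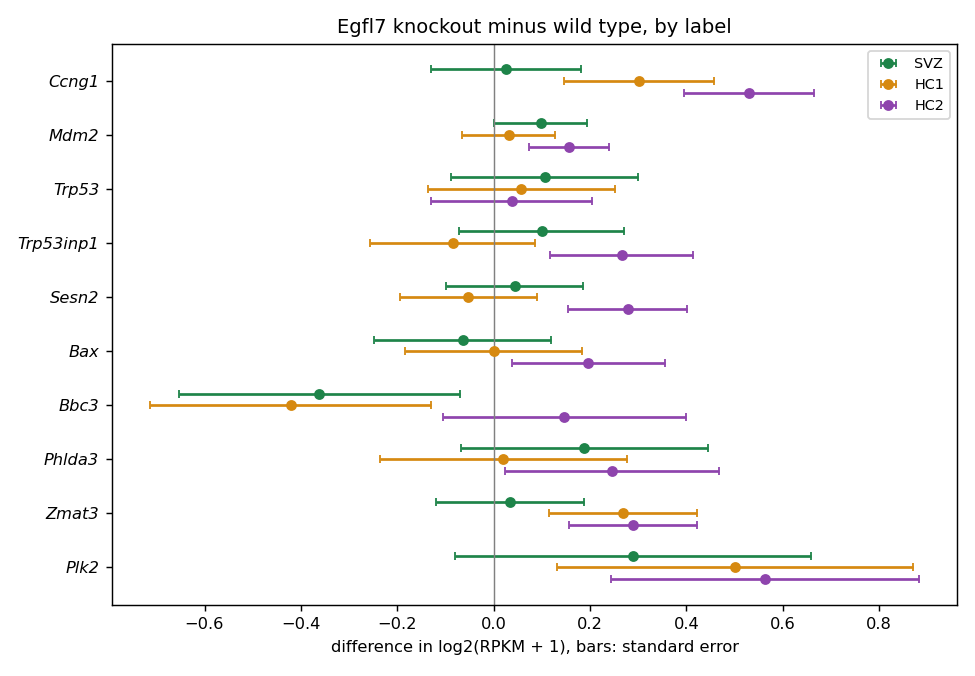
Knockout minus wild type in log2(RPKM + 1) for each of the 10 genes in SVZ (green), HC1 (orange) and HC2 (purple) spheres, by label, with bars for the standard error. All 10 HC2 values lie above 0, up to 0.56 for Plk2 and 0.53 for Ccng1, while Bbc3 lies at -0.36 in the SVZ and -0.42 in HC1.

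Across the 20 libraries, the 5 named genes whose log2(RPKM + 1) followed Ccng1 most closely, of 13613 ranked, were Rhod (Pearson r = 0.825), Ano3 (0.801), Gbp7 (0.801), Camk2b (0.799) and Cep164 (0.789). These values are descriptive, and the libraries share groups and depth. Among the other 9 genes, Plk2 had r = 0.635 to Ccng1 (rank 112), Bax 0.536 (rank 406), Mdm2 0.515 (rank 519) and Bbc3 -0.04 (rank 7244). The 45 pairs among the 10 genes had r from -0.908, for Bbc3 and Zmat3, to 0.954, with 24 above 0. After group means were taken out, 39 of the 45 were above 0, with a median of 0.361, and Bbc3 and Zmat3 had r = 0.162. The same was not computed for pairs of other genes, so these counts have no background to be set against.

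The wider pathway was read from 2 further lists. Of 34 other p53 target genes, 33 were kept, and between rounds 8 rose and 10 fell in HC2, with a median of 0.02 against -0.06 over all genes. These counts are near the shares over all genes, 22.8% higher and 31.5% lower, and with equal medians they turned to 10 higher and 8 lower. The 4 called genes of largest difference included Gadd45a, a growth arrest and repair gene, which went from 2.12 ± 0.880 RPKM (SD, n = 6) in HC1 to 6.42 ± 0.959 RPKM (SD, n = 8) in HC2, a difference of 1.29 (SE 0.18, limma adjusted p = 1.04e-05). Dcxr, a carbonyl reductase, rose by 1.19 (limma adjusted p = 6.11e-07) and the death receptor gene Fas by 1.03 (limma adjusted p = 0.00145). Gtse1, which is expressed late in the cell cycle, had a difference of -0.97 (limma adjusted p = 0.049). Cdkn1a, the p53 target that encodes the cell cycle inhibitor p21 and was chosen after its values were seen, went from 81.6 ± 16.7 RPKM (SD, n = 6) to 57.3 ± 15.9 RPKM (SD, n = 8), a difference of -0.53 (limma adjusted p = 0.0102).

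Of 21 p53 regulators and relatives, 19 were kept, and 2 rose and 10 fell in HC2, with a median of -0.41, beside 22.8% higher and 31.5% lower over all genes. With equal medians 4 were called higher and 8 lower, with a median of -0.29. Rpl11 and Rpl5, ribosomal proteins that bind Mdm2, had differences of -1.65 and -1.62 (limma adjusted p = 7e-10 and 2.54e-10). Ribosomal protein genes have many near-identical copies in the genome, so both values are uncertain. The ubiquitin ligase gene Cop1, listed as Rfwd2, went from 23.2 ± 2.16 RPKM (SD, n = 6) to 7.21 ± 0.884 RPKM (SD, n = 8), a difference of -1.56 (limma adjusted p = 2.85e-11). Ep300, an acetyltransferase gene, differed by -1.35 (limma adjusted p = 1.14e-08). Mdm4, the partner of Mdm2, and Cdkn2a, whose product Arf inhibits Mdm2, were chosen after their values were seen. Mdm4 differed by -0.63 (limma adjusted p = 1.04e-05) and Cdkn2a by 1.02 (limma adjusted p = 4.65e-06).

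**Figure D5:**
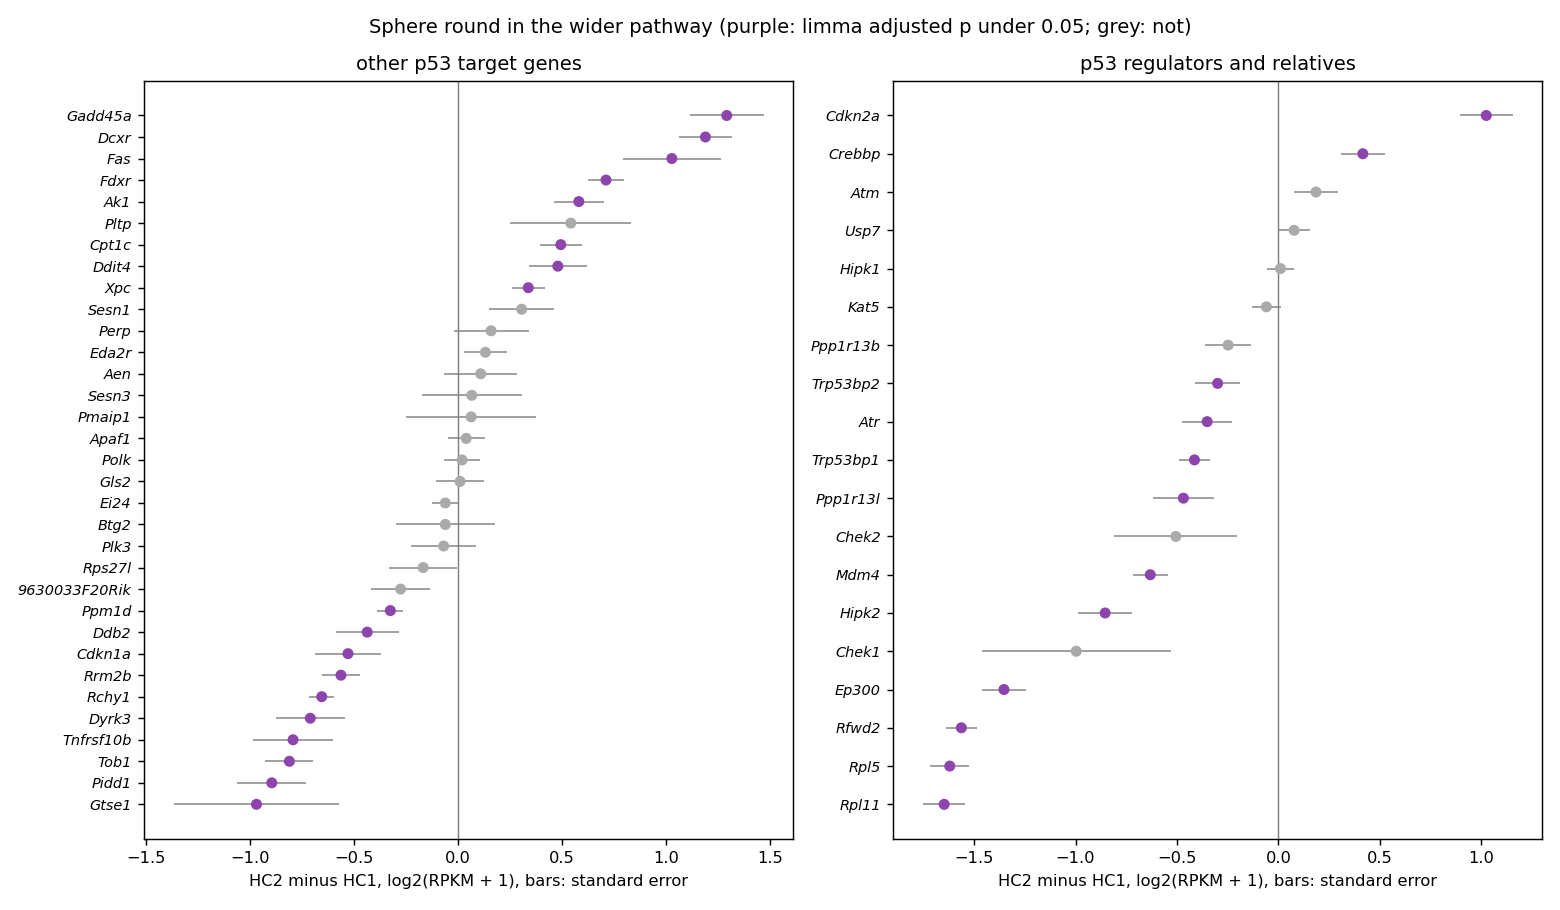
HC2 minus HC1 in log2(RPKM + 1) for 33 other p53 target genes (left) and 19 p53 regulators and relatives (right), sorted by value, with bars for the standard error and purple points for genes past the limma threshold. Targets spread from Gadd45a at 1.29 to Gtse1 at -0.97, and 10 of the 19 regulators were called lower, beside 31.5% of all genes. With equal medians 4 regulators were called higher and 8 lower.

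Between regions, 13 of the 33 other targets were called higher and 5 lower in the SVZ, with a median of 0.24, beside 14.5% higher and 19.6% lower over all genes. Dyrk3, a kinase gene, differed by 1.42 (limma adjusted p = 8.42e-05), Pmaip1, which encodes the BH3-only protein Noxa, by 1.37 (limma adjusted p = 0.00604), Sesn3, a sestrin gene, by -1.30 (limma adjusted p = 0.00171) and Gtse1 by 1.26 (limma adjusted p = 0.0307). Of the 19 regulators limma called 4 higher and 0 lower. These were the checkpoint kinase genes Chek1, at 1.37 (limma adjusted p = 0.0431), and Chek2, at 1.04 (limma adjusted p = 0.0218), with Rpl11 at 0.45 and Rpl5 at 0.34 (limma adjusted p = 0.00645 and 0.0178). Without both doubtful SVZ libraries 9 targets were higher and 2 lower, and 2 regulators were higher. Of all 16403 genes, 1119 were then called higher and 1815 lower. With the cell cycle mean as a covariate, 12 targets were called higher and 3 lower, and 2 regulators higher and 0 lower. Over all genes that fit called 1455 higher and 2429 lower. Among male knockouts alone limma called 3 targets higher and 0 lower, and 0 regulators, beside 432 higher and 726 lower of all genes. An unadjusted p under 0.05 was found there for 15 targets, 3 regulators and 4232 of the 16403 genes. By genotype, 0 genes of either list passed limma's test in SVZ or HC1 spheres, where 1 of each list had an unadjusted p under 0.05.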

How the data were processed

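Total RNA was sequenced from 20 neurosphere libraries. Trizol extraction, Ribo-Zero depletion, a stranded TruSeq preparation, mouse exon capture and paired NovaSeq reads are given per the labels' protocols. Tools named per the submitters' processing notes were FastQC 0.11.5 and DESeq2, on mm10 (GRCm38). For the aligner, counter, gene lengths and use of strand: not given in the sources used here. Per the file headers, the authors deposited linear total RPKM, written with a decimal comma; blanks were read as 0. No count model was fitted, since RPKM are normalized.

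The filter of 0.5 RPKM or more in 3 or more libraries kept 16403 genes (44.7%). To these, with limma 3.58.1 (R 4.3.3), a model was fitted on log2(RPKM + 1) with 1 mean for each of 6 groups and 14 residual degrees of freedom (eBayes with trend and robust). Two-sided p-values were Benjamini-Hochberg adjusted over all kept genes, with a threshold of 0.05. Differences understate the change of low genes. The scripts were tested on simulated data. Depth behind each value is relative, because the deposited RPKM give no totals, and no intervals that need counts are given.

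Members and gene lists were chosen with earlier results of these data known. The genes named are the 10 members, up to 4 called genes of largest difference per list and tested contrast, the 5 named genes most correlated with Ccng1, and Egfl7 as the label check. All libraries of a group come from mice with separate numbers, and all were treated as independent, although some numbers recur between groups. No pair of libraries of a group was near identical (at most 3.55% equal values). Alternatives were another pseudocount, filter, scaling, weighting, covariate, set of libraries and a replicate block.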

Additional observations from a re-analysis of the deposited data

How the results depend on the processing

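The 5 calls between sphere rounds were kept under all 22 alternatives, and 0 of the 10 genes passed limma's test by genotype in SVZ or HC1 spheres, or for the difference between those effects, under any alternative run. SVZ against HC1 was less firm. Of its 5 calls, 3 were left with no filter on low values, 3 with the cell cycle covariate, 2 without both SVZ libraries whose Egfl7 goes against the label and 0 among knockouts alone, where fewer samples were compared. With single libraries left out, 2 to 6 genes passed, with 2 without SVZ knockout replicate 2 or without SVZ wild-type replicate 3. Mdm2 was gained as higher with equal medians or library weights. Trp53inp1 was gained as lower with library weights or with only the compared groups fitted. The cause of these changes was not tested.

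These differences changed sign. For genotype in the SVZ, Zmat3 became -0.01 with library weights and -0.07 without both doubtful libraries, Bbc3 0.02 and 0.09, and Bax 0.07 without both. For genotype in HC1 with the cell cycle covariate, Phlda3 became -0.0036, Bax -0.07 and Trp53 -0.03. Between rounds, Trp53inp1 became 0.04 with equal medians, 0.02 with library weights and 0.10 among knockouts, Mdm2 0.03 and Plk2 0.05 with equal medians, and Bax 0.10 and Plk2 0.60 with the covariate. Between regions, Bbc3 became 0.03 with library weights. The difference between the HC1 and SVZ effects became -0.01 for Bax and -0.02 for Plk2 with the covariate, and -0.07 for Bax without both doubtful libraries.

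Leaving out 1 library at a time also turned some signs, none of them called. For genotype in the SVZ the ranges were -0.20 to 0.10 for Bax, -0.14 to 0.19 for Ccng1, -0.01 to 0.40 for Phlda3, -0.08 to 0.18 for Sesn2 and -0.07 to 0.15 for Zmat3. In HC1 they were -0.12 to 0.08 for Bax, -0.03 to 0.07 for Mdm2, -0.21 to 0.17 for Phlda3, -0.16 to 0.05 for Sesn2 and -0.20 to 0.04 for Trp53inp1. For the difference between those effects they were -0.10 to 0.20 for Bax, -0.30 to 0.21 for Bbc3, -0.14 to 0.02 for Mdm2, -0.39 to 0.03 for Phlda3, -0.23 to 0.03 for Sesn2 and -0.13 to 0.02 for Trp53. Plk2 ranged from -0.26 to 0.06 between rounds, and Bbc3 from -0.24 to 0.02 between regions.

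Over all genes, calls by genotype went from 2 to between 0 and 9 in the SVZ, from 2 to between 0 and 8 in HC1 and from 4 to between 0 and 26 in HC2, with 26 without HC2 wild-type replicate 2. SVZ against HC1 went from 5593 calls to 2934 without both doubtful libraries and 1158 among knockouts. The difference between effects went from 2 calls to between 0 and 7.

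Same-numbered knockout and wild-type libraries of the SVZ and of HC1 did not deviate together (r of deviations from -0.259 to 0.007). With so few pairs, these values cannot show whether such libraries share more than a number. Mouse numbers that recur within a genotype, between HC2 and the first round, were not checked in this way. With the replicate block, 0 of the 10 genes passed for genotype in the SVZ, in HC1 and for the difference between them. For SVZ against HC1, 4 passed. Calls over all genes were 0, 0, 1 and 6280. In SVZ against HC1 the block joined libraries of the same genotype and replicate number. Their mouse numbers differ, 4 to 6 in the SVZ and 1 to 3 in HC1, so that block does not pair animals. Of the knockout libraries, only SVZ replicate 1 deviated most like the wild type of its own number (r = 0.007). The others were closer to another number, such as SVZ knockout replicate 2 to wild-type replicate 3 (r = 0.252, against -0.063 for its own).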
